A study of Mus musculus with 9 samples.

Results

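The genes described are 10 disease-associated microglia (DAM) genes: Cst7, Lpl, Itgax, Igf1, Ch25h, Cd52, Cd72, Gpnmb, Lgals3 and Cybb. They were taken by symbol from the Drop-seq count files of 9 samples, which list 33274 symbols in at least 1 file and 12580 in every file. Of the 10 genes, 9 are in every file, and Gpnmb is not listed in the file of the brain without tumor, where it is therefore missing and not 0. The samples hold mouse cells from brains of female nude mice, a strain that lacks a functional thymus and has strongly reduced T cells. They comprise 7 patient-derived orthotopic xenografts of glioblastoma (GBM PDOXs), named P3, P8, P13, T16, T101, T192 and T233 and left untreated, a further P3 PDOX after treatment with the alkylating agent temozolomide (P3 TMZ), and 1 normal brain without tumor (Nu-NB). In a PDOX the tumor cells are human and the cells of the tumor microenvironment (TME) are of the mouse. Each sample is 1 library of 1 model, with T233 and T192 being longitudinal models of 1 patient. FACS was used to separate mouse cells in P8 and Nu-NB, and MACS in the remaining samples. The same split is seen in the gene symbols, whose release is older for P8 and Nu-NB, so that sort and symbol release cannot be told apart.

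Disease-associated microglia are a state first described around amyloid plaques and dying neurons, in which microglia lower their homeostatic sensors and raise genes of lysosomes, lipid handling, phagocytosis and adhesion. Similar programs are known in demyelination, aging and tumors of the brain, where microglia are called tumor-associated macrophages. The state is marked by the joint presence of such genes in 1 cell, which a level over many cells does not show, so that both were measured here: the level of each gene per cell type and sample, and how many of the genes were detected in the same cell at equal depth.

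Of 14622 cells kept, 4409 were myeloid-like, in clusters made without these 10 genes and named from 10 markers such as Csf1r, C1qa and Ctss. The 7 PDOXs hold 3401 of them, between 228 in P3 and 1037 in T192 with a median of 448, and Nu-NB holds 686. The median depth of a myeloid-like cell in Nu-NB was 485.5 unique molecular identifiers (UMIs, 1 per captured transcript), and PDOXs ranged from 530 to 1091, so that single cells of Nu-NB show fewer genes of any kind. Summed myeloid-like UMIs amounted to 393609 in Nu-NB and ranged over the PDOXs from 172383 (T16) to 2480058 (T192). Clusters that could not be named hold 10.7% of cells and mixed ones 3.10%. Over 36 pairs of files, 134 cell barcodes out of 33998 occur in both, and at most 11 in a pair.

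The sequences around the start sites of the genes are shown first, for letters that they share. RefSeq tables of the GRCm38.p6 build hold the promoter, from 250 bases before to 50 bases after the start, for 8 of the 10 genes, and Lpl and Cd52 are not among them. Both strands were searched for TGANTCA, the letters bound by AP-1 factors such as Fos and Jun, and these occur in 5 of 8 promoters, against 7.81% of 32851 promoters. The 5 are printed 5′ to 3′ on the strand of the gene, with the TGANTCA match in capitals. Igf1 and Cybb have a further stretch in capitals, GAGGAA or its reverse complement TTCCTC, the core that PU.1 and other ETS factors bind.
Cst7, chr2:150570165-150570464, plus strand: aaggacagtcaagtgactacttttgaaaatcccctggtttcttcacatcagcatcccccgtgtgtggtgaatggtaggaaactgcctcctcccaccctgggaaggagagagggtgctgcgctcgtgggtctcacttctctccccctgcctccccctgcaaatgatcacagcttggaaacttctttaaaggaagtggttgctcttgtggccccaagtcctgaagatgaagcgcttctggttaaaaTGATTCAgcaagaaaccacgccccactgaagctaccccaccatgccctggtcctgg
Itgax, chr7:128129300-128129599, plus strand: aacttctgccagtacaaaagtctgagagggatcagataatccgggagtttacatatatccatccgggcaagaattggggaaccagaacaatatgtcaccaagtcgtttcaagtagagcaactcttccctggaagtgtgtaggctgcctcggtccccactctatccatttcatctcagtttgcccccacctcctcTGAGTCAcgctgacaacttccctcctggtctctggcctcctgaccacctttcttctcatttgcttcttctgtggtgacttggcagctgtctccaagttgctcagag
Igf1, chr10:87860861-87861160, plus strand: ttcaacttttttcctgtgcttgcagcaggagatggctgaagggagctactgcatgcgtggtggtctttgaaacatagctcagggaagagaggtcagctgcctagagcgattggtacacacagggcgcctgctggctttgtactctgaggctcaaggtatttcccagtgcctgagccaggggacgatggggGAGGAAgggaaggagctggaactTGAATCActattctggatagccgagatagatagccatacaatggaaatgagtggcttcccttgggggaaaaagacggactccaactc
Gpnmb, chr6:49036268-49036567, plus strand: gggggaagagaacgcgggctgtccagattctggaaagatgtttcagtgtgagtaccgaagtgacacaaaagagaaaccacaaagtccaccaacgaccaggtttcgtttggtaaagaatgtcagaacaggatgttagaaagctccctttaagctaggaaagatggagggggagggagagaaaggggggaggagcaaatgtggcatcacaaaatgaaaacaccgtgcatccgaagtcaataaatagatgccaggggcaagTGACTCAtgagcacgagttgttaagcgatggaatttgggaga
Cybb, chrX:9469275-9469574, minus strand: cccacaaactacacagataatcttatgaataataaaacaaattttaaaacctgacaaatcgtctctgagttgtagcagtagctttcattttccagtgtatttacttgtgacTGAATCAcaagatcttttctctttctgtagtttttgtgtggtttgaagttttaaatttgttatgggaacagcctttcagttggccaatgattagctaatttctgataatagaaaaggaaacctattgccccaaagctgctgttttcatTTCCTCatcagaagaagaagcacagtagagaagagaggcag

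The match begins 6 bases before the start in Cst7, 37 in Igf1, 56 in Itgax and 139 in Cybb, and 8 bases after the start in Gpnmb. GAGGAA was found in 3 of 8 promoters (Igf1, Cd72 and Cybb), against 28.3% of all promoters. CACGTG, the E-box of factors such as TFEB and MITF, was found in 0 of 8 (7.15% of all), and CATGTG, the related M-box core, in 0 of 8 (14.2% of all). The matches do not overlap. A match describes the letters of this window and was not tested as a binding site, and no relation of these letters to the levels below was tested.

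The first comparison asks whether the genes differ between microglia and macrophages of a tumor-bearing and a normal brain. Levels are given as CPM, the UMIs of a gene scaled to a common total of all UMIs that the myeloid-like cells of a sample hold for genes listed in every file. All 9 comparable genes had a higher median level in the PDOXs than in Nu-NB. In the edgeR quasi-likelihood fit across 8630 genes, 0 of the 9 passed an adjusted p (FDR) of 0.01 with a log2 fold change of 1 or more, beside 0.0116% of all genes, which is 1 gene. With 1 Nu-NB the fit rests on the spread among the 7 PDOXs, and an exact permutation test of 7 against 1 cannot give a p smaller than 1 in 8. At an unadjusted p under 0.05, 8 of the 9 genes were higher in the PDOXs, beside 11.4% of all genes, and DESeq2 called 6 of 9 higher at the same FDR and fold, beside 2.02%. The median log2 difference of the 9 was 3.84, against 0.06 over all genes tested. Of the 9 genes, 7 were above Nu-NB in 7 of 7 PDOXs, beside 16.8% of all genes.

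**Figure D1:**
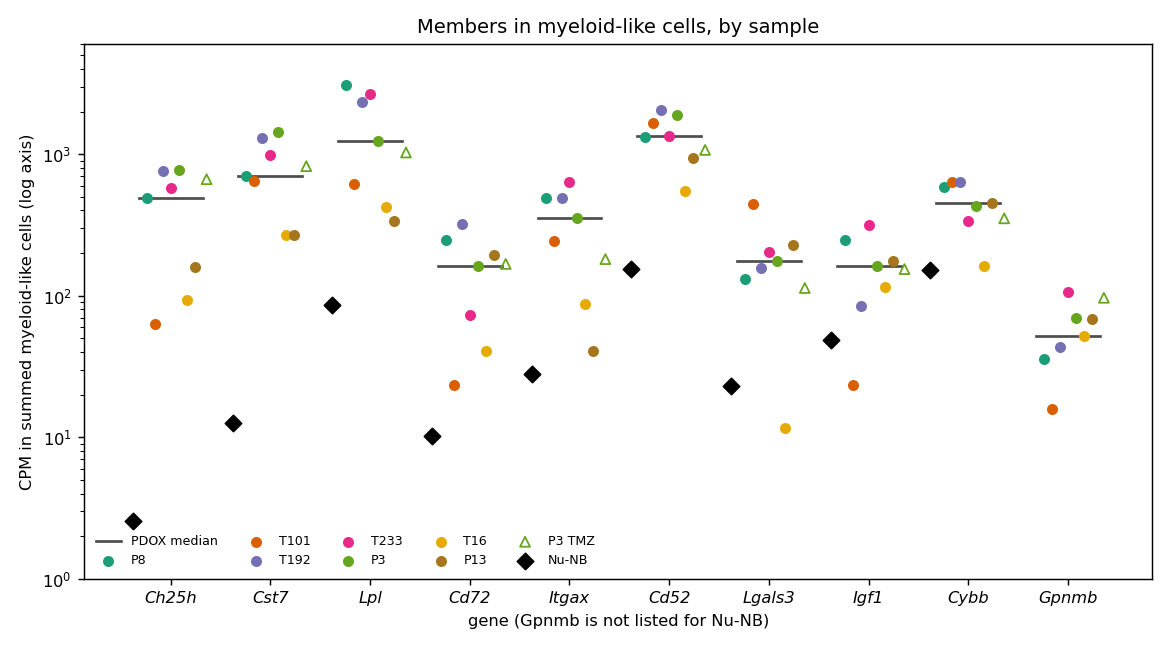
Level of each gene in summed myeloid-like cells by sample, in CPM on a log axis. Each point is 1 sample, and a reader should see Nu-NB below all 7 PDOXs for 7 genes and above 1 PDOX for Igf1 (T101) and Lgals3 (T16).

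Cst7 encodes cystatin F, an inhibitor of cysteine cathepsins in lysosomes. It was at 12.7 CPM in Nu-NB, from 5 UMIs, and at 267 in T16 as the lowest, 705 as the median and 1430 in P3 as the highest PDOX. T16 and P13 were the low samples and all PDOXs lay above Nu-NB (log2 difference 6.22 ± 1.33 (SE), edgeR FDR 0.0766). Lpl encodes lipoprotein lipase, which releases fatty acids from triglycerides. It was at 86.4 CPM in Nu-NB and at 336 in P13, 1239 as the median and 3090 in P8, again with T16 and P13 lowest and no overlap (4.39 ± 1.40, edgeR FDR 0.124). Ch25h encodes cholesterol 25-hydroxylase, which makes an oxysterol that regulates sterol synthesis and antiviral responses. A single Ch25h UMI was counted in Nu-NB (2.54 CPM, 95% exact Poisson interval 0.0643 to 14.2), against 62.8 CPM in T101, 487 as the median and 777 in P3. Its log2 difference of 7.54 ± 2.07 (edgeR FDR 0.0910) rests on that UMI. Gpnmb, a glycoprotein of phagocyte lysosomes and the cell surface, was low throughout, at 15.7 CPM in T101 (4 UMIs), 52.2 as the median and 106 in T233, and has no Nu-NB value.

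In T16 and P13, the low samples of Cst7 and Lpl, much of the RNA of these genes lay outside the myeloid-like class. Of all Cst7 UMIs, 21.1% in T16 and 25.7% in P13 were in myeloid-like cells, against 64.6% (P3) to 95.7% (P8) in the other PDOXs. For Lpl it was 21.2% and 23.9%, against 57.8% to 92.8%. Clusters left mixed, which carry markers of more than 1 class, held 46.8% of Cst7 UMIs in T16 and 24.1% in P13, and ependymal-like cells 22.5% and 22.2%. Of the cells that pass a gate on myeloid markers, 231 of 410 in T16 and 424 of 765 in P13 were myeloid-like. The part of this in the low levels was not tested.

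Itgax encodes CD11c, the integrin chain used to mark dendritic cells and activated microglia. It was at 27.9 CPM in Nu-NB and at 40.4 in P13, 354 as the median and 631 in T233 (log2 difference 3.84 ± 1.40, edgeR FDR 0.161). P13 lay close to Nu-NB, while the other PDOXs were at 87.0 CPM or more. Cd72, a lectin receptor that restrains signaling in B cells and myeloid cells, was at 10.2 CPM in Nu-NB, from 4 UMIs, and at 23.6 in T101, 163 as the median and 320 in T192 (4.15 ± 1.41, edgeR FDR 0.139). P13, which had little Cst7 and Lpl, was above the PDOX median of Cd72 at 195 CPM, while T16 was low in all 3 genes, with Cd72 at 40.6 CPM. Cd52 encodes a short peptide anchored to the surface of leukocytes. Its level was 155 CPM in Nu-NB and 551 in T16, 1336 as the median and 2049 in T192, with all 7 PDOXs above Nu-NB (3.41 ± 0.782, edgeR FDR 0.0819).

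Igf1 encodes the growth factor insulin-like growth factor 1. It was at 48.3 CPM in Nu-NB and at 23.6 in T101, 163 as the median and 317 in T233, so that the groups overlap (log2 difference 2.01 ± 1.02, edgeR unadjusted p = 0.0713, FDR 0.282). Lgals3 encodes galectin-3, a lectin that binds β-galactosides and gathers at damaged lysosomes. At 22.9 CPM in Nu-NB, it was at 11.6 in T16, 175 as the median and 448 in T101, again with an overlap (3.32 ± 1.24, edgeR FDR 0.168). Cybb encodes the catalytic subunit of the phagocyte NADPH oxidase, which makes superoxide. Its level was 152 CPM in Nu-NB and 162 in T16, 449 as the median and 640 in T101 (1.84 ± 0.657, edgeR FDR 0.154). T16 was thus near Nu-NB, and the other 6 PDOXs were at 336 CPM or more. Over the 10 genes, the lowest PDOX was T16 for 4, T101 for 4 and P13 for 2. The highest was T233 for 3, T192, T101 and P3 for 2 each, and P8 for 1, so that no PDOX was highest for all.

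P8 is the PDOX that shares the FACS sort and the symbol release with Nu-NB. All 9 comparable genes were higher there than in Nu-NB by more than counting error, with 1 sample on either side and no test. Of 9895 genes with 10 or more UMIs in the 2 sums together, 12.4% were higher in P8 by that measure. The ratio of CPM was smallest for Cybb, 3.84 (95% counting interval 2.95 to 5.08), and Igf1, 5.11 (3.22 to 8.59). It was 8.49 (6.58 to 11.1) for Cd52, 17.4 (9.66 to 35) for Itgax, 35.8 (25.6 to 51.7) for Lpl and 55.5 (23.7 to 171) for Cst7. For Ch25h it was 191.6, with an interval of 34.3 to 7580 because of the single UMI in Nu-NB. These intervals, like all counting intervals given here, cover counting error and not the spread between mice.

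Myeloid-like cells were further split by markers into microglia-like, monocyte-like and border-associated macrophage (BAM)-like sub-clusters, which hold 3063, 279 and 59 cells of the PDOXs. Microglia are resident in the brain, monocytes enter from blood, and BAMs line meninges, vessels and choroid plexus. Summed over the PDOXs, Cst7 was at 989 CPM in microglia-like and 133 in monocyte-like cells, and no UMI was counted in BAM-like cells, where the upper 95% limit is 81.5. Lpl followed the same order with 2230, 191 and 88.4 CPM, and Ch25h was at 579, 28.6 and 110. Itgax was at 446 CPM in microglia-like and 100 in monocyte-like cells, with 0 UMIs in BAM-like cells. Cst7, Lpl, Ch25h and Itgax thus had their highest summed level in microglia-like cells. These sums pool unequal numbers of cells, since 144 of 279 monocyte-like cells are from T101 and 53 of 59 BAM-like cells from T16 and P13. Within the 4 PDOXs with 20 or more monocyte-like cells (P8, T101, T192 and P13), all 4 genes and Igf1 were higher in microglia-like than in monocyte-like cells in 4 of 4. Of the 2 PDOXs with 20 or more BAM-like cells, Ch25h was higher in BAM-like cells of T16 (171 CPM against 84.4) and in microglia-like cells of P13 (181 against 46.4).

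Lgals3 had another order, at 152 CPM in microglia-like, 867 in monocyte-like and 66.3 in BAM-like cells. Cybb was likewise higher in monocyte-like cells (1044 CPM) than in microglia-like (515) and BAM-like cells (574), and Cd52 was at 2068 CPM in monocyte-like, 1577 in microglia-like and 155 in BAM-like cells. Igf1 was highest in BAM-like cells, at 530 CPM, against 171 in microglia-like and 28.6 in monocyte-like cells. Cd72 was at 227 CPM in microglia-like and 205 in monocyte-like cells when summed, yet within samples the monocyte-like value was the larger in 4 of 4 PDOXs: 338 CPM against 245 in P8, 378 against 320 in T192, 297 against 188 in P13, and 24.8 against 23.0 in T101, where only 2 and 4 UMIs were counted. Lgals3, Cybb and Cd52 were likewise higher in monocyte-like cells in 4 of 4, and Igf1 and Cybb in BAM-like cells in 2 of 2. The sub-classes were built on other genes of the same cells, so these orders are descriptions without a test.

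**Figure D2:**
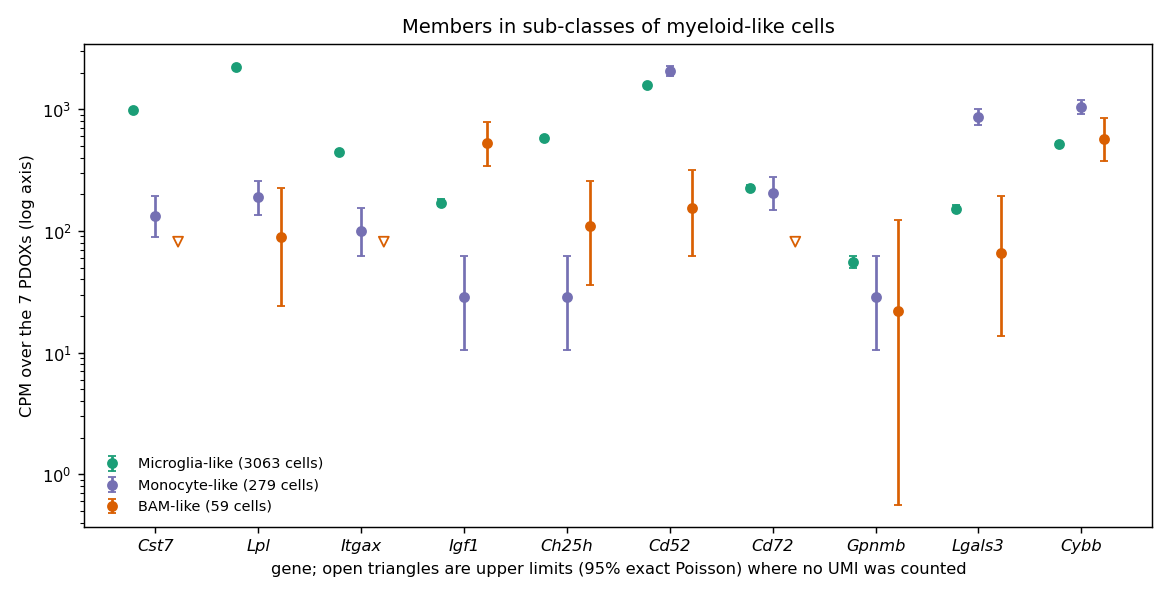
Level of each gene in microglia-like, monocyte-like and BAM-like cells summed over the 7 PDOXs, in CPM on a log axis, with 95% exact Poisson intervals. Open triangles are upper limits where no UMI was counted, and Lgals3 and Cybb are highest in monocyte-like cells and Igf1 in BAM-like cells.

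This split changes the values of Igf1, Lgals3 and Cybb. In Nu-NB, 26 BAM-like cells held 15 of 19 Igf1 UMIs and 34 of 60 Cybb UMIs of the myeloid-like cells. In microglia-like cells alone, Igf1 was at 11.0 CPM in Nu-NB (4 UMIs) and at 28.7 in T101, 165 as the median and 318 in T233 (log2 difference 4.14, edgeR FDR 0.0852). Cybb was at 33.0 CPM in Nu-NB (12 UMIs) and at 110, 413 and 629 as the lowest, median and highest PDOX (3.93, edgeR FDR 0.0489). Restricted in this way, all 9 comparable genes were above Nu-NB in 7 of 7 PDOXs, as were 17.7% of the 8232 genes tested. Of the 9, 0 passed edgeR FDR 0.01 (0.0243% of all genes did), 9 had an unadjusted p under 0.05 by edgeR and were higher (13.2% of all genes), and DESeq2 was not run on this subset. For Lgals3 that rests on few UMIs, with 11.0 CPM in Nu-NB (4 UMIs) and 12.98 in T16 (2 UMIs), 154.5 as the median and 200 in T233. No Cd72 UMI was counted in microglia-like cells of Nu-NB. Against a floor of 3 UMIs (8.25 CPM), the median PDOX, at 161 CPM, was at least 19.5-fold higher and the lowest, T101, at least 2.78-fold higher.

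In T101, 144 of 374 myeloid-like cells (38.5%) were monocyte-like, the largest share of any PDOX. Its Lgals3 level, the highest of all PDOXs in summed myeloid-like cells, was 189.5 CPM in microglia-like and 1005 in monocyte-like cells. The summed level of 6 monocyte markers in myeloid-like cells was 122 CPM in Nu-NB, and the PDOXs were at 151 to 1362, with T101 highest and Fn1 at 0 in Nu-NB. BAM markers were at 803 CPM in Nu-NB, against 39.1 to 1143 over the PDOXs, with T16 highest. Markers of other cells also moved: erythrocyte markers were at 2779 CPM in Nu-NB and at 2.09 to 481 over the PDOXs, choroid plexus markers at 168 and 356 to 11527 (P3), endothelial markers at 33.0 and 157 to 479, and astrocyte markers at 1313 and 128 to 1056. Oligodendrocyte precursor markers were at 15.2 CPM in Nu-NB and 64.1 to 349 over the PDOXs, and cycling markers at 27.9 and 64.4 to 385. Oligodendrocyte markers were at 178 and 73.8 to 145, and neutrophil markers at 600 and 132 to 574. Dissociation-response genes, at 6867 CPM in Nu-NB, lay within the PDOX range of 2512 to 9069. The part of these other cells in the differences was not tested.

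Outside myeloid-like cells, the genes were read against the same 10 myeloid markers, since free RNA and doublets carry myeloid transcripts into other classes. In endothelial-like cells the myeloid markers were at 1.46% to 3.21% of their myeloid-like level, as the median over PDOXs, and Cst7 (1.93%), Lpl (2.14%), Itgax (2.50%) and Cd52 lay in that range. In astrocyte-like cells the markers were at 2.57% to 8.02%, and Lpl was at 10.4% and Lgals3 at 31.8%. Mural-like and ependymal-like clusters held much more myeloid RNA, with markers at 15.8% to 58.7% and 27.2% to 69.1%, so that levels there say little about mural or ependymal cells. Cycling myeloid-like cells, a cluster of its own led by cell cycle genes, held Lpl at a median of 1236 CPM and Cd52 at 1328, close to the myeloid-like medians, and Cst7 at 371.

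**Figure D3:**
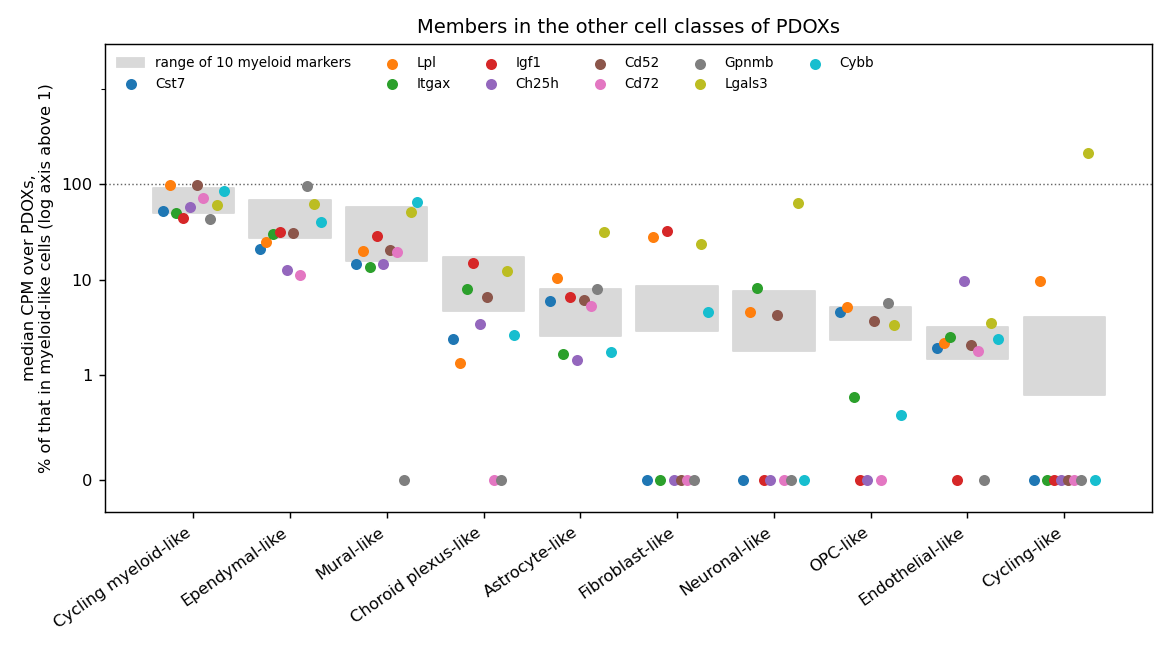
Median CPM over PDOXs of each gene in each other named class, in % of its median in myeloid-like cells, on an axis that is logarithmic above 1. Grey bars are the range of 10 myeloid markers in that class, and of the classes drawn, which leave out mixed and unnamed clusters, Lgals3 in cycling-like cells, at 213%, is the 1 point above the dotted line at 100%.

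A few genes stood above the marker range. Lgals3 was at 373 CPM in cycling-like cells as the median of 5 PDOXs, with 201 as the lowest and 1024 as the highest, which is 213% of its myeloid-like median where the myeloid markers reach 4.01%. Neither Nu-NB nor P8, the samples sorted by FACS, had a cycling-like cell, and the origin of these cells was not tested. In unnamed clusters Lgals3 was at 580 CPM as the PDOX median, 185 in Nu-NB and 1554 in P3 TMZ. The share of all Lgals3 UMIs that fell in myeloid-like cells was between 1.42% in T16 and 84.5% in P8, with a median of 40.6%, against a median of 70.7% for Cst7 and 68.1% for Lpl, which were lowest in T16 at 21.1% and 21.2%. In fibroblast-like cells of 3 PDOXs, Lpl (28.1%), Igf1 (32.5%) and Lgals3 (23.5%) lay above the marker range of 2.89% to 8.56%. Lpl there was at 164, 349 and 794 CPM, and at 104 in Nu-NB from 1 UMI. Ch25h was at 9.77% in endothelial-like cells, with a PDOX median of 47.5 CPM and 0 UMIs in Nu-NB. Lgals3 was at 64.2% in neuronal-like cells of 3 PDOXs, where the markers reach 7.60%, and Lpl at 9.72% in cycling-like cells. The other values above the highest marker of a named class were closer to it: Lgals3 in endothelial-like (3.49%), Itgax in neuronal-like (8.08%), Cybb in mural-like (65.0%) and Gpnmb in ependymal-like (95.4%) and oligodendrocyte precursor-like cells (5.64%), and Lpl (99.7%) and Cd52 (99.4%) in cycling myeloid-like cells. When the classes were ordered by their median, neighbors overlapped in their range over PDOXs for every gene, except that Cybb in ependymal-like cells (106 to 245 CPM) lay above fibroblast-like cells (0 to 20.5 CPM).

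The same fit was made in 7 other classes, those for which Nu-NB and 3 or more PDOXs had 10 cells. Not every gene had the counts to be tested there: none was in choroid plexus-like cells, only Lpl in fibroblast-like and only Lpl and Lgals3 in neuronal-like cells, and Gpnmb in no class. Of those tested, none passed edgeR FDR 0.01 with the same fold. The share of all genes called was 0% in each of them, from 5910 genes tested in astrocyte-like, 6290 in endothelial-like, 4964 in mural-like, 2134 in neuronal-like, 1155 in cycling myeloid-like, 1041 in fibroblast-like and 495 in choroid plexus-like cells. At an unadjusted p under 0.05 the counts over all genes were 673, 859, 524, 138, 182, 75 and 22, in the same order. DESeq2 was not run in these classes. Among the genes described, an unadjusted p under 0.05 was reached by Cst7, Lpl, Ch25h, Cd52 and Lgals3 in astrocyte-like cells, by Lpl and Cd52 in cycling myeloid-like cells and by Lgals3 in neuronal-like cells, each higher in the PDOXs. Myeloid markers moved with them in astrocyte-like cells: Tyrobp was at 8.25 CPM in Nu-NB and 114.5 as the median of 6 PDOXs, Fcer1g at 4.95 and 70.6, C1qc at 9.90 and 107. Relative to the myeloid-like level, Cst7 (5.99%), Cd52 (6.18%) and Ch25h (1.43%) did not exceed the marker range there, and the part of carried-over RNA in these differences was not tested. Some PDOXs had too few cells, so that the astrocyte-like and cycling myeloid-like fits hold 6, the choroid plexus-like fit 4 and the fibroblast-like and neuronal-like fits 3.

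The second comparison sets the P3 PDOX after TMZ beside the untreated P3 PDOX, with 1 sample each and no test. In myeloid-like cells, 5 of 10 genes were lower after TMZ by more than counting error and 0 were higher. Of 8493 genes with 10 or more UMIs in the 2 sums together, 9.2% were lower and 4.96% higher by that measure. The ratio of CPM was 0.513 (95% counting interval 0.387 to 0.681) for Itgax, 0.570 (0.507 to 0.641) for Cd52, 0.575 (0.503 to 0.658) for Cst7, 0.648 (0.442 to 0.960) for Lgals3 and 0.83 (0.725 to 0.950) for Lpl. The interval held 1 for Igf1, Ch25h, Cd72, Gpnmb and Cybb, of which Ch25h was at 0.855 (0.722 to 1.02) and Cd72 at 1.03 (0.714 to 1.5). Spp1, the DAM gene of osteopontin given here as a reference, was at 1.52 (1.46 to 1.58). All 10 genes of P3 TMZ lay inside the range of the 7 untreated PDOXs.

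The third question is whether single cells hold several of the genes. Each cell was thinned to 500 UMIs, which left 323 myeloid-like cells in Nu-NB and 118 (P3) to 618 (T192) in the PDOXs, and left out 363 cells in Nu-NB and 7 (P13) to 419 (T192) as too shallow. In Nu-NB, 8 of 323 cells held 2 or more of the 9 genes listed in every file (2.48%, 95% exact binomial interval 1.08% to 4.82%). In the PDOXs the share was 14.3% in T16, 16.6% in P13, 43.7% in T101, 61.9% in P3, 63.7% in P8, 65.4% in T233 and 73.0% in T192. All 7 lay above Nu-NB, and T16 and P13 stood well below the other 5. With the gate on myeloid markers in place of clusters, these 2 were at 9.30% and 16.7%, and the others at 44.9% to 67.7%. The share was 37.6% (31.4% to 44.1%) in P3 TMZ. Endothelial-like cells, thinned alike, had such a share between 0% and 5.88% (4 of 68 cells in T233) in the PDOXs, from cells with a median of 439 to 1210 UMIs. Without thinning, 3.64% of myeloid-like cells of Nu-NB and 16.3% to 75.6% of those of the PDOXs held 2 or more.

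**Figure D4:**
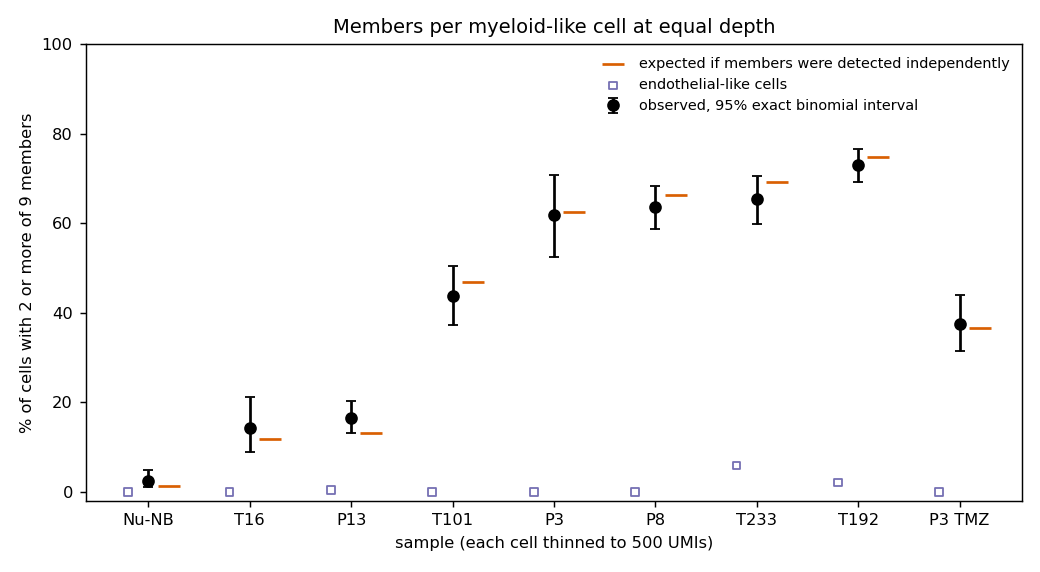
Share of myeloid-like cells with 2 or more of 9 genes in each sample, each cell thinned to 500 UMIs, with 95% exact binomial intervals, beside the share expected if the genes were detected independently. The observed share runs from 2.48% in Nu-NB to 73.0% in T192 and in the PDOXs lies below the expected share in 5 and above it in T16 and P13.

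Cells with 3 or more of the genes made up 0.310% in Nu-NB, and between 3.57% (T16) and 43.0% (T192) in a PDOX, with a median of 28.0%. The most genes held by 1 cell was 6 in the PDOXs and 3 in Nu-NB. Gene by gene, Cd52 was detected in 6.19% of Nu-NB cells and in 19.5% to 52.5% of PDOX cells, with a median of 42.8%. Lpl was detected in 2.17% and in 7.03% (P13) to 59.5% (P8), and Cst7 in 0.619% and in 4.99% (P13) to 42.4% (P3). Ch25h was found in 0 of 323 cells of Nu-NB and in 2.72% (P13) to 26.4% (T192). Igf1 and Lgals3 overlapped here too, at 1.86% each in Nu-NB and 1.75% to 10.7% and 0% to 20.1% in the PDOXs.

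The shares were set beside those that the detection rate of each gene alone would give. Had the genes been detected independently within a sample, 11.9% of cells would hold 2 or more in T16, 13% in P13, 46.8% in T101, 62.5% in P3, 66.3% in P8, 69.1% in T233 and 74.9% in T192, and 1.22% in Nu-NB. The observed shares given above were lower than these in 5 PDOXs and higher in T16 and P13. For 3 or more genes the observed share was 3.57% in T16 with 1.62% expected and 7.71% in P13 with 1.98% expected (ratios of 2.21 and 3.89), while over the PDOXs the ratio had a median of 1.06 and was lowest in T233, at 0.966. In P3 TMZ the ratio was 1.43, and in Nu-NB 1 cell held 3 (0.310% with 0.0460% expected). In pairs, over the 2266 thinned cells of the PDOXs, 39 of 45 pairs had 5 or more cells expected, and their ratio of observed to expected cells had a median of 1.16, from 0.835 to 1.56, with 34 above 1. When each pair was first given by its median over PDOXs, the median over the 39 pairs was 1.11. In counts this sparse, with cells of 1 sample sharing a library, such an excess is a description and carries no test.

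**Figure D5:**
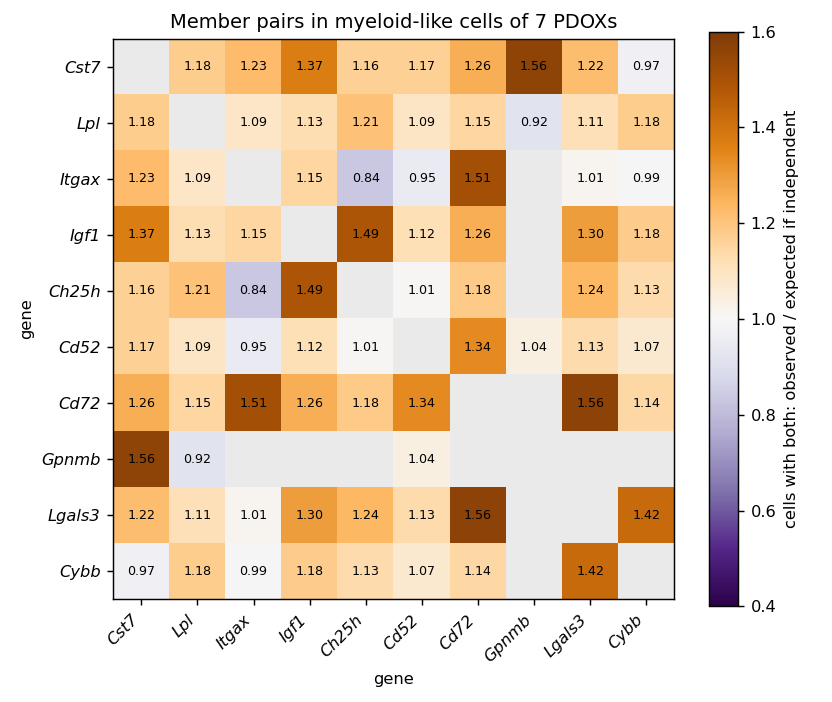
Cells with both genes of a pair, observed over expected if independent, summed over the myeloid-like cells of 7 PDOXs thinned to 500 UMIs. Orange fields are above 1, purple fields below 1, and grey fields have fewer than 5 cells expected; 34 of 39 pairs are above 1.

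Pairs with the highest ratio were few cells deep: Cd72 with Lgals3 was seen in 15 cells with 9.59 expected (1.56) and Cst7 with Gpnmb in 10 with 6.41 expected (1.56). The single PDOXs mostly lay on the other side, with these 2 pairs above 1 in 2 of 6 and 3 of 7 and at a PDOX median of 0.732 and 0.855. Itgax with Cd72 was seen in 38 with 25.1 expected (1.51, above 1 in 4 of 7). Igf1 with Ch25h was seen in 33 cells with 22.2 expected (1.49) and Lgals3 with Cybb in 45 with 31.6 expected (1.42). The lowest was Itgax with Ch25h, in 52 cells with 62.3 expected (0.835). Better filled pairs lay closer to 1, such as Cst7 with Lpl (325 cells, 276 expected, 1.18) and Lpl with Cd52 (444 cells, 407 expected, 1.09). Of all pairs, 5 were above 1 in 7 of 7 PDOXs, namely Cst7 with Lpl, Cst7 with Cd52, and Lpl with Ch25h, Cd52 or Itgax. Summed over pairs, the ratio was between 1.08 and 1.13 in T192, T233, T101, P3 and P8, 1.52 in T16 and 2.33 in P13, and it was 1.45 in P3 TMZ. In Nu-NB the ratio was 2.35, without Gpnmb and from only 10 observed with 4.26 expected, where P13 had 190 with 81.5 expected.

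The 2 PDOXs with a larger ratio were also those with the largest share of their cells in 1 microglia-like sub-cluster, led by homeostatic genes such as P2ry12 and Gpr34. It held 615 of 686 myeloid-like cells of Nu-NB (89.7%), 33.7% of P13, 31.0% of T16, 13.9% of P8 and 0.877% to 2.31% of the other PDOXs. Within it, 4.55% of 264 PDOX cells had 2 or more of the genes, against 50.3% to 75.7% in the other microglia-like sub-clusters, 37.8% (71 of 188) in monocyte-like and 9.09% (4 of 44) in BAM-like cells. Of these 264 cells, 145 are of P13, and single PDOXs with 20 or more cells went down to 7.41% and 15.2% in the other microglia-like sub-clusters. Inside and outside it, the share was 7.55% and 72.2% in P8, 5% and 18% in T16, and 0.690% and 24.3% in P13. In Nu-NB it was 0.680% (2 of 294) inside and 20.7% (6 of 29 cells, 95% exact binomial interval 7.99% to 39.7%) outside. Outside this sub-cluster Nu-NB was thus above T16 and below the other 6 PDOXs, but its 29 cells there include 13 BAM-like cells. Over all microglia-like cells, the share was 0.993% in Nu-NB (3 of 302) and 14.1% (P13) or more in the PDOXs. Without this sub-cluster, the summed ratio was 1.74 in P13, 1.26 in T16 and 1.03 in P8. Cells that held 2 or more of the genes also held Spp1 in 877 cells with 764 expected (a ratio of 1.15, above 1 in 7 of 7 PDOXs). For the homeostatic receptor P2ry12 the ratio was 0.730 (241 cells, 330 expected) and for the microglial surface protein Tmem119 it was 0.698 (61 cells, 87.4 expected), both below 1 in every PDOX. C1qa, a complement gene that microglia keep in most states, was at 0.997.

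Among 1428 other genes detected in 5% or more of the cells, those with the highest median ratio over PDOXs to cells with 2 or more of the genes were Myo5a (1.51), Fn1 (1.51), Sh3bgrl (1.40), Bcl2a1a (1.40), Cpd (1.37), Cxcl2 (1.36), Msr1 (1.30) and Il4i1 (1.30). Of these, Cpd was above 1 in 7 of 7 PDOXs. The lowest were Rps12 (0.576), Pag1 (0.567), Kdm5a (0.567) and Gtf2h2 (0.503). The ranking is by detection in the same thinned cells and has no test. Both ends of the ranking hold genes seen in few cells, 5.30% (Cxcl2) to 14.3% (Fn1) for the 8 highest and 5.43% (Pag1) to 6.97% (Rps12) for the 4 lowest. Ratios of such genes can differ widely between PDOXs, as for Il4i1, from 0 to 6.67.

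Other genes of the program were counted in the myeloid-like fit from fixed lists, again with 0 called by edgeR. DESeq2 called 6 higher in the first DAM stage, 8 in the second, 4 among partners and 1 among dissociation-response genes, 0 among regulators, and 2 lower among homeostatic genes (P2ry13 and Sall1), where 2.02% of all genes were called higher and 0.649% lower. Of 8 genes of the first DAM stage, 8 were above Nu-NB in every PDOX (16.8% of all genes) and 7 had an unadjusted p under 0.05 with a higher level (11.4% of all genes), with a median log2 difference of 2.40. Fth1, the ferritin heavy chain, was at 762 CPM in Nu-NB and at 4473 to 11415 over the PDOXs (log2 difference 3.63 ± 0.761, edgeR FDR 0.0766), and Tyrobp, the adaptor of microglial receptors, differed by 2.50 ± 0.796 (edgeR FDR 0.123). Of 13 tested genes of the second stage and lipid droplets, 11 reached an unadjusted p under 0.05, all higher, 10 were above Nu-NB in every PDOX, and the median was 2.98. Fabp5, a fatty acid carrier, was at 85.0 CPM in the median PDOX and at 2.54 in Nu-NB from 1 UMI. Axl, a receptor tyrosine kinase for apoptotic cells, was at 326 and 17.8 CPM, and Ccl6, a chemokine, at 855 and 109.

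Homeostatic genes lay on the other side. Of 15, 13 were below Nu-NB in every PDOX, beside 31.8% of all genes, and 10 had an unadjusted p under 0.05 with a lower level, beside 9.22%. Their median log2 difference was -1.15. P2ry13, a nucleotide receptor, was at 854 CPM in Nu-NB and at 117 to 259 over the PDOXs (-2.04 ± 0.352, edgeR FDR 0.0628). Sall1, a transcription factor of microglial identity, was at 328 and 38.9 to 157 CPM, and Tmem119 at 869 and 81.4 to 351.

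Genes whose products act with those described were 17 tested of 20 listed, of which 6 had an unadjusted p under 0.05 with a higher and 1 with a lower level (median log2 difference 1.21). Lgals3bp, a glycoprotein bound by galectin-3, was at 66.1 CPM in Nu-NB and at 186 to 696 over the PDOXs (2.75 ± 0.768, edgeR FDR 0.0930). Rac2, a GTPase of the NADPH oxidase, was at 43.2 and 116 to 276 CPM (2.28 ± 0.604, edgeR FDR 0.0832). Itgb2, the chain that pairs with Itgax, was at 112 and 155 to 563 CPM (1.83 ± 0.778, edgeR FDR 0.214). The 1 lower gene, named after its value was seen, was Mertk, a receptor for apoptotic cells (-1.52 ± 0.429, edgeR FDR 0.0959). Of 9 tested regulators, 1 was higher at an unadjusted p under 0.05, a share close to the 11.4% of all genes, and the median was -0.13. That gene, Bhlhe40, was also named after its value was seen: 0 UMIs were counted in Nu-NB, where 3 UMIs would be 7.62 CPM, and the PDOXs were at 17.4 to 105 CPM. Bhlhe41 (-0.45) and Spi1 (0.19), which encodes PU.1, had small log2 differences, and that of Spi1 turned below 0 with total UMIs as the scale. Of 9 dissociation-response genes, 1 was higher at an unadjusted p under 0.05, again close to that share, Atf3 at 2.54 ± 0.663 (edgeR FDR 0.0826), named after its value was seen.

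All positions are of the GRCm38 build. The genes with the largest fitted differences are protein-coding and lie at chr19:34473778-34475164 (Ch25h, minus strand), chr2:150570415-150578944 (Cst7, plus strand) and chr8:68880491-68907448 (Lpl, plus strand). Igf1 overlaps Igf1os, Ch25h overlaps Gm26902, Cd52 overlaps Crybg2 and Cd72 overlaps Tesk1, each on the opposite strand. Whether counting used the strand is not given in the sources used here, so reads of such a pair may not be told apart.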

How the data were processed

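Drop-seq, a droplet method with a 3′ tag per transcript, was applied by the authors to mouse cells of 9 samples. They deposited raw UMI counts per gene and cell barcode, without normalization; the submitters' processing notes name STAR, bcl2fastq 2.0 and GRCm38/mm10. All values used are these counts. The genes, lists and comparisons were chosen with earlier results of these data known. Cells needed at least 200 genes and no more than 30% mitochondrial UMIs, the top 5% of each sample by doublet score were removed, and the rest were clustered with scanpy 1.11.5 and leidenalg 0.10.2 (Python 3.11.15; 2000 variable genes, 30 components, resolution 1) without the genes described. Clusters were named from fixed markers. Clusters left mixed or unnamed were split again where they held 60 or more cells.

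UMIs summed per class and sample with at least 10 cells were compared by edgeR 4.0.16 (quasi-likelihood, TMM, filterByExpr) and by DESeq2 1.42.0 on R 4.3.3, with Benjamini-Hochberg adjustment over all genes. All 9 comparable genes passed the filter. Both tools were tested on simulated data. Named besides the 10 genes are the 3 genes of each list with the largest difference at 50 CPM or more, and the 8 most and 4 least like genes. Thinning drew 500 UMIs per cell without replacement. Expected cells were computed within each PDOX and summed. PDOXs are different models, with T192 and T233 from 1 patient, so p-values measure the spread between models and not between patients. Results of some genes of the fixed lists are not reported here. P3 TMZ entered no test. Files hold 1519323 UMIs in all for Nu-NB and from 1294068 to 8410580 for a PDOX.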

Additional observations from a re-analysis of the deposited data

Results flagged for a closer look

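Of 22 groups of 7 PDOX values checked for a sample far from the others, 1 was found, where chance alone gives about 1 in 20, or 1.1. It is the ratio of observed to expected cells summed over the pairs of genes in P13, at 2.33, while the next PDOX, T16, was at 1.52 and the gap was 0.644 of the whole range. In P13, 33.7% of myeloid-like cells lay in the sub-cluster that holds most cells of Nu-NB, and without it the ratio was 1.74. The part of that sub-cluster in the value was not tested.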

How the results depend on the processing

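The median log2 difference of the 9 comparable genes was between 3.58 and 4.15 over 19 alternatives, and 3.63 with T192 and T233, of 1 patient, summed. Of 171 values of single genes described, 165 kept direction and side of the threshold, 6 passed it with DESeq2, and 0 changed sign. Sizes moved more: with at least 500 detected genes, the log2 difference of Igf1 went from 2.01 to 1.19, Lpl from 4.39 to 3.55, Cst7 from 6.22 to 5.35 and Ch25h from 7.54 to 10.98 and Cd72 from 4.15 to 9.45. Thinning took Lgals3 from 3.32 to 2.45, and without monocyte-like and BAM-like cells Igf1 was at 4.14, Cybb at 3.93 and Cd72 at 9.98. The count of these genes called was 0 with edgeR under every alternative and 6 with DESeq2. The count of all genes called was 1, and it was 2 with total UMIs as the scale, 230 with DESeq2, 2 without a filter on low counts, 0 with a marker gate in place of clusters, 2 without monocyte-like and BAM-like cells, 5 with at least 500 detected genes, 5 after thinning, and 0 with the cycling myeloid-like cluster (added after seeing the data). Leaving out 1 PDOX gave 1 to 53, with 53 without P8, 4 without T16 and 2 without T101. Total UMIs as the scale moved the median of all genes from 0.06 to -0.17. The log2 difference of Spi1 turned to -0.049 with total UMIs and -0.018 with the marker gate, and the cause was not tested.

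The PDOX median share of cells with 2 or more genes, 61.9%, was 35% at 300 UMIs, where each cell shows fewer genes, and 28.0% when 3 or more genes were asked for. It was 83.1% at 1000 UMIs and 52.2% to 60.9% under the other cell choices. The Nu-NB share, 2.48%, was 12.5% at 1000 UMIs and 0.662% without monocyte-like and BAM-like cells. It was 17.2% without the sub-cluster that holds most Nu-NB cells (added after seeing the data), where the PDOX median was 57.8%. These values thin the cells anew: a second draw of the same cells gave 58.5%, and leaving that sub-cluster out of the first draw gave 62.1% and, in Nu-NB, 20.7% (6 of 29 cells). Leaving out 1 PDOX gave 52.8% to 62.8%. The median ratio of pairs was 1.09 to 1.19 under the other depths and cell choices, 1.14 to 1.20 without 1 PDOX and 1.18 over all 45 pairs. No paired analysis was possible because Nu-NB is 1 sample, so that the groups share only 1 replicate number. Few UMIs lie behind some values: 5 or fewer behind Cst7, Ch25h and Cd72 in Nu-NB, 2 behind Lgals3 in T16 and 4 behind Gpnmb in T101.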

Other observations

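Igf1 was also counted in unnamed clusters, at 612 CPM in Nu-NB (33 UMIs) and 501 CPM in P8 (34 UMIs), while 0 UMIs were counted there in T101, P3, T16 and P13. In 9 unnamed clusters without any cell of Nu-NB or P8, Lgals3 was at up to 1558 CPM. Of these, 3 had predicted genes and pseudogenes such as Rps19-ps4 among their leading genes, and the other 6, mostly cells of T101, were led by genes such as Cnot2, Rab3ip and Cand1. The 1 gene that edgeR called in myeloid-like cells was the hemoglobin gene Hbb-bt, lower in the PDOXs (log2 difference -7.40, edgeR FDR 0.000139).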
